A study of Mus musculus with 4 samples.

Results

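Gene expression was compared between livers of fed PPARα-null mice and livers of fed wild-type mice. The comparison used 2 of the 4 arrays of the study, 1 for each genotype, each carrying pooled liver RNA. Of the 22626 probe sets that are not controls, 5542 (24.5%) read 64 units or more on the brighter of the fed arrays and were taken as measured. By gene, the brightest probe set reached this level for 3529 of the 12393 genes that have a probe set of their own. Units are intensities on a linear scale, and a difference is given as the log2 value in PPARα-null minus that in wild-type liver.

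All mice were male and, according to the labels, 12 to 20 weeks old. The PPARα-null mice belonged to the substrain 129S4/SvJae. The design text names 129S1/SvImJ for the wild-type mice, whereas the array labels name only 129Sv for them. RNA of up to 5 mice per group was pooled for 1 Affymetrix MOE430A array. The fed groups were killed when the dark phase ended, and the fasted groups, which serve here for comparison, went without food for 24 hours. No group had a replicate array, so no difference could be tested and none has an error. As named in the design text, the groups differed in substrain as well as in genotype, and the contributions of the substrain and of the receptor cannot be told apart.

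PPARα is a nuclear receptor that binds fatty acids and pairs with the retinoid X receptor on DNA. In liver it is best known for the induction of mitochondrial, peroxisomal and microsomal fatty acid oxidation during fasting, when fatty acids arrive from adipose tissue. The fed comparison shows how the genotypes differed while food was available.

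The array medians over all probe sets lay between 14.4 and 14.6 units, and between 23.0% and 23.7% of the probe sets of an array read 64 units or more. The hepatocyte list had 11 genes at this level, among them albumin, with a median difference of 0.01 and with 0 genes past 1.5-fold. Over all measured genes 3.17% were lower and 3.23% higher by this threshold. Ppara, the targeted gene, gave 583 units in the fed wild-type pool and 104 units in the fed PPARα-null pool, and 755 and 16.3 units in the fasted groups. Ppara was thus 5.61-fold lower in fed PPARα-null liver, in the direction of the labels. Whether its probes cover the disrupted stretch of the gene is not known here. Of the 20 annotated genes on either side of Ppara that have a probe set of their own, 40 in all, 6 were measured. Creld2, an endoplasmic reticulum protein, was the only neighbour past 1.5-fold, at 1356 and 713 units in fed wild-type and PPARα-null liver, while the other neighbours differed by between -0.30 and 0.20.

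Most genes read alike in the fed genotypes. Of the 5542 probe sets, 168 (3.03%) were at least 1.5-fold lower and 173 (3.12%) at least 1.5-fold higher in PPARα-null liver. Counted by gene, 112 (3.17%) were lower and 114 (3.23%) were higher. The median difference over the 3529 genes was -0.00, and 2773 genes (78.6%) stayed within 1.25-fold. Differences of at least 2-fold were found for 40 genes in the lower and 49 in the higher direction, and of at least 4-fold for 9 and 13 genes. The SD of the difference over genes was 0.39, compared with 0.80 for the same genes between the fasted genotypes. In the fasted pair of arrays, 688 (19.5%) of these genes were lower and 344 (9.75%) higher in PPARα-null liver.

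**Figure D1:**
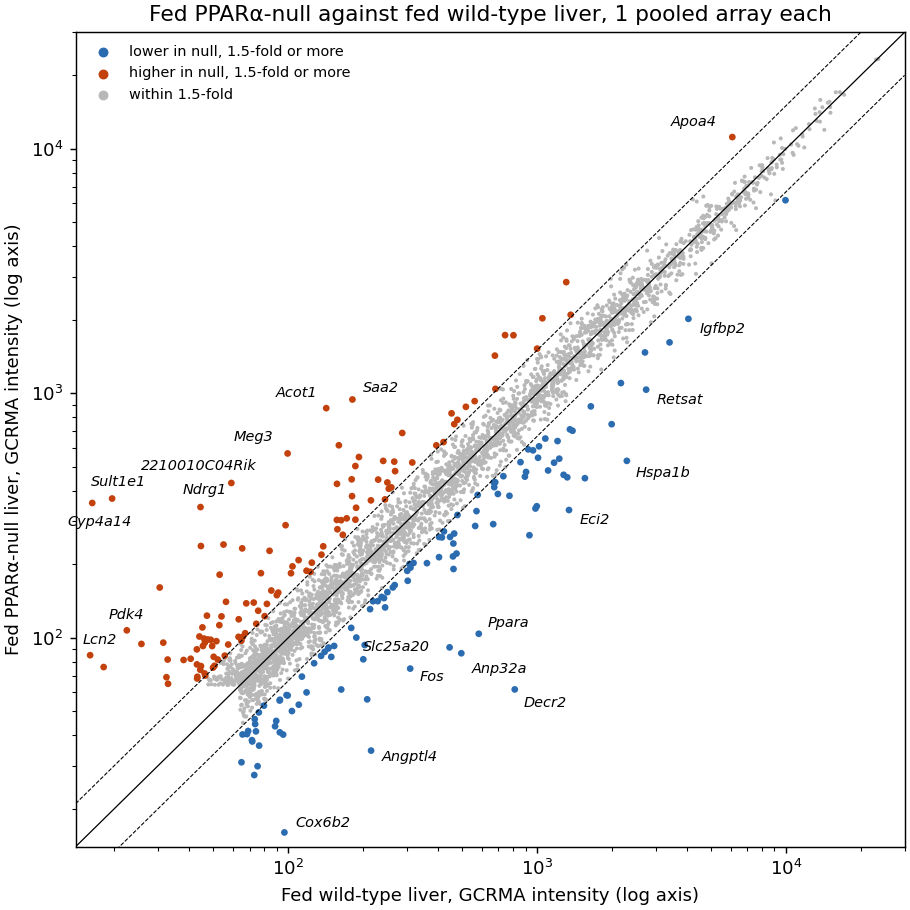
Each point is 1 of the 3529 measured genes, placed by its intensity in fed wild-type (x axis) and fed PPARα-null liver (y axis) on log axes, with values under 16 units drawn at 16. Dashed lines mark 1.5-fold, and the 112 lower and 114 higher genes are coloured. Ppara and Decr2 lie far below the diagonal and Cyp4a14 and Sult1e1 far above it.

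A low level makes a difference less certain. Of the measured genes, 260 reached 64 units on only 1 fed array, and such a gene had to differ between the arrays. They held 30 of the lower and 47 of the higher genes. Among the 3269 genes at 64 units or more on both arrays, 82 (2.51%) were lower and 67 (2.05%) higher. At the limit itself, Pfkl and Akt1 were just inside in wild-type liver, with 61.2 and 56.9 units in PPARα-null liver. Timm29 and Ranbp9 were just outside in wild-type liver, with 63.4 and 48.7 units in PPARα-null liver. Probe sets of the same gene scattered around their mean difference with an SD of 0.21 over 1027 genes with several measured probe sets. Of the 226 genes past 1.5-fold, 49 had another measured probe set, and in 29 of these at least 1 other also passed 1.5-fold in the same direction.

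The largest deficits of fed PPARα-null liver included enzymes that prepare fatty acids for oxidation. Decr2, the peroxisomal reductase needed for polyunsaturated fatty acids, read 814 units in wild-type and 61.5 units in PPARα-null liver, 13.2-fold lower. It read 1483 and 88.2 units in the fasted groups, so that both PPARα-null arrays lay below both wild-type arrays. Angptl4, a secreted inhibitor of lipoprotein lipase, read 215 and 34.6 units and was 6.23-fold lower. Its probe set carries a suffix that marks possible matches to several transcripts, and the remaining probe set of Angptl4 was at the floor of 16 units on both fed arrays. Cox6b2, an isoform of a cytochrome c oxidase subunit, read 96.6 units in wild-type liver and was under the floor in PPARα-null liver, at least 6.04-fold lower. Anp32a, a nuclear phosphoprotein, read 496 and 86.5 units in its brightest probe set (a difference of -2.52), but its probe set without a suffix had a difference of only -0.10.

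Other genes among the 15 lowest are known for other roles. Dbp, a clock-controlled transcription factor, read 208 and 56.0 units, and its second probe set also passed 1.5-fold. Abcg5, which with Abcg8 forms the sterol exporter into bile, read 932 and 263 units, a 3.55-fold difference. Adtrp, a hydrolase of branched fatty acid esters, was 2.92-fold lower, at 986 and 338 units.

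**Figure D2:**
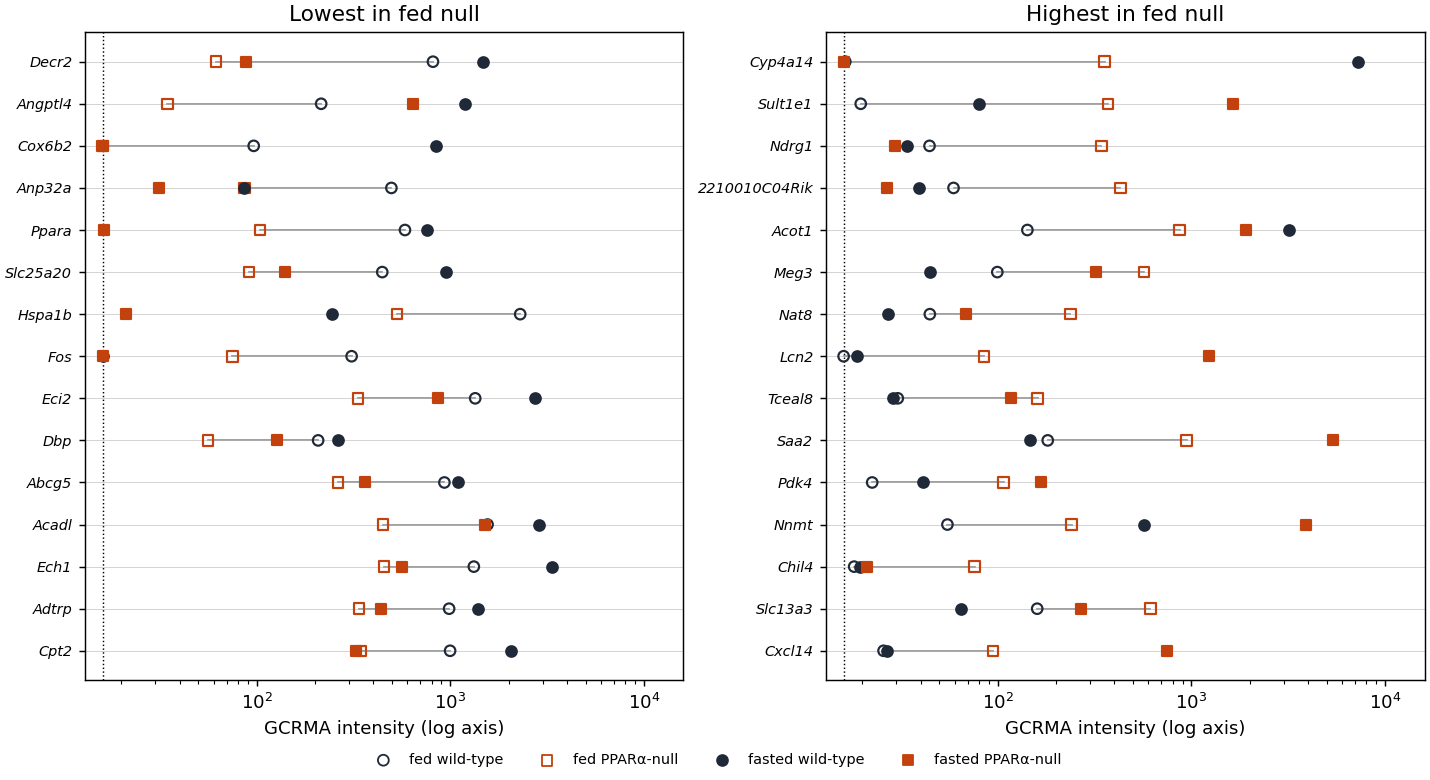
Intensities on a log axis of the 15 genes with the lowest (left) and the 15 with the highest fed difference (right). Open symbols are the fed and filled symbols the fasted arrays, circles are wild-type and squares PPARα-null, a grey line joins the fed pair, and a dotted line marks the floor at 16. Decr2, Slc25a20 and Eci2 were lower in PPARα-null liver in both feeding states, whereas Cyp4a14 and Acot1 were higher in the fed and lower in the fasted state.

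Entry of fatty acids into mitochondria had the lowest median of the lists with at least 3 measured genes. The carnitine shuttle carries long-chain acyl groups across the mitochondrial membranes. Of its 4 measured genes, 3 were lower and 0 higher in fed PPARα-null liver, and the median difference was -1.23, against 3.17% lower among all genes. Slc25a20, the carnitine-acylcarnitine carrier, read 445 units in fed wild-type and 91.4 units in fed PPARα-null liver, a 4.87-fold deficit that its other measured probe set shared (-1.73). Cpt2, the carnitine palmitoyltransferase of the inner membrane, read 998 and 345 units and was 2.89-fold lower. Cpt1a, the regulated outer membrane enzyme, read 904 and 477 units, a difference of -0.92 that ranged from -1.54 to -0.36 in its other measured probe sets. Crot, which serves peroxisomal acyl groups, differed by 0.12. In the fasted pair Cpt1a differed by only -0.31, compared with -2.66 for Cpt2.

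The mitochondrial β-oxidation cycle was split. Of 18 measured genes, 6 were lower, 0 were higher, and the list median was -0.11, again against 3.17% lower among all genes. The 6 genes comprised the auxiliary isomerases Eci2 (1345 and 333 units in wild-type and PPARα-null liver) and Eci1 (1171 and 521 units). They also included Acadl and Acadvl, the dehydrogenases of long and very long chains. Acadl read 1558 and 450 units, a 3.46-fold difference, and Acadvl read 1995 and 748 units, a 2.67-fold difference. Etfdh and Etfb, which pass electrons from these dehydrogenases to the respiratory chain, completed the group. Both are among the genes that the study selected in part on these animals, so their direction is not independent evidence. Etfdh was 2.75-fold lower, at 1279 and 464 units, and Etfb 1.97-fold lower, at 1389 and 703 units.

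The other enzymes of the same cycle read alike in the fed genotypes. Acadm, the dehydrogenase of medium chains, read 2540 and 2600 units. Hadh and Echs1, which act on shorter chains, differed by 0.06 and 0.12. The subunits of the trifunctional protein, Hadha and Hadhb, differed by -0.09 and -0.27. In the fasted pair 14 of the 18 genes were lower, against 19.5% of all genes, and the median was -0.97. Hsd17b10, for example, differed by 0.03 in the fed pair but read 3840 and 1138 units in fasted wild-type and PPARα-null liver.

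Peroxisomes shorten very long chains and branched fatty acids before mitochondria take them. Here 4 of 17 measured genes were lower, against the same 3.17%, 0 were higher, and the median was -0.12. Besides Decr2 and Eci2, which is also counted among the mitochondrial genes, these were Ech1 and Hsd17b4. Ech1, an isomerase of dienoyl-CoA, read 1323 and 454 units and was 2.92-fold lower. Hsd17b4, the bifunctional enzyme of branched chains, read 3409 and 1617 units and was 2.11-fold lower, although its other measured probe set differed by only -0.53. Ehhadh and Acaa1a, which are classical PPARα targets of the same pathway, read 2279 and 2216 units and 415 and 412 units in the fed pair. Both had clear deficits in fasting, when Ehhadh read 10629 units in wild-type and 1557 units in PPARα-null liver. Pxmp4, a peroxisomal membrane protein, was 2.52-fold lower and was the only gene of peroxisome biogenesis past 1.5-fold among 13. It was dim in both fed arrays, at 75.3 and 29.9 units.

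Microsomal ω-oxidation showed no common direction, with 1 lower and 1 higher gene of 7, against 3.17% and 3.23% of all genes. Aldh3a2, which oxidizes fatty aldehydes, read 460 and 215 units and was 2.13-fold lower. Cyp4a14, an ω-hydroxylase and among the most responsive PPARα targets in mouse liver, was the gene with the largest fed excess. It read 16.3 units in fed wild-type and 356 units in fed PPARα-null liver, 21.8-fold higher, with the wild-type value next to the floor. In fasting the order was the opposite, with 7278 units in wild-type liver and a value under the floor in PPARα-null liver, at least 455-fold lower. Members of the Cyp4a family are similar in sequence, so the source of the fed signal within the family is uncertain.

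The thioesterase Acot1, which releases free fatty acids from acyl-CoA in the cytosol, had the same pattern. It read 142 units in fed wild-type and 870 units in fed PPARα-null liver, 6.12-fold higher, but 3193 and 1909 units in the fasted groups. Its close relatives in the Acot family can share its signal. Pdk4, the kinase that closes the pyruvate dehydrogenase complex in fasting, read 22.5 and 107 units and was 4.78-fold higher in the fed pair, and 4.06-fold higher in the fasted pair. Cd36, a fatty acid receptor of the plasma membrane, read 157 and 427 units, and its other measured probe set was also past 1.5-fold (1.07).

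Over a list of 28 textbook PPARα targets that were measured, 10 were lower and 4 were higher in fed PPARα-null liver, with a median of -0.40, against 3.17% and 3.23% of all genes. The 4 higher genes were Cyp4a14, Acot1, Pdk4 and Cd36. Besides genes already described, the lower genes included Retsat, Creb3l3 and Txnip. The study selected Txnip in part on these animals and knew of no earlier report of its regulation by PPARα. The direction of Txnip is thus not independent evidence. Retsat, the retinol saturase, read 2745 and 1036 units and was 2.65-fold lower in the fed state. Creb3l3, a transcription factor of the hepatic fasting response, read 775 and 381 units. Fabp1, the abundant fatty acid binding protein of liver, read 23524 and 23302 units and thus did not separate the fed genotypes, although it read 20630 and 7814 units in fasting. For the same 28 genes the fasted comparison had 23 lower genes, 1 higher gene and a median of -1.37. Of all genes, 19.5% were lower and 9.75% higher in the fasted pair.

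**Figure D3:**
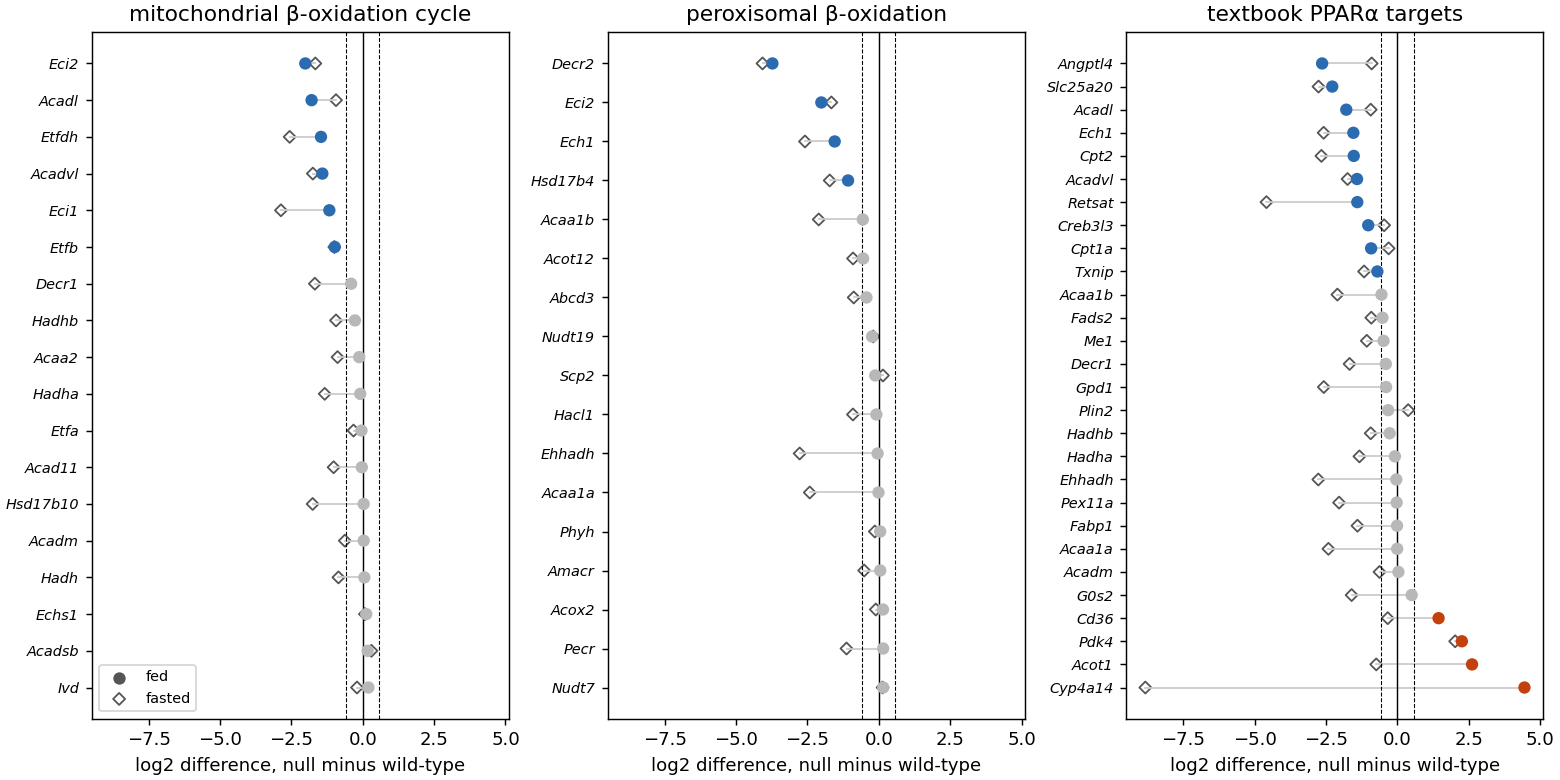
Differences (log2, PPARα-null minus wild-type) of the measured members of 3 lists, with circles for the fed and diamonds for the fasted pair of arrays. Blue and orange circles are at least 1.5-fold lower and higher in the fed pair, and dashed lines mark 1.5-fold. In each list some genes such as Decr2 and Slc25a20 were far below 0 in both pairs and others such as Ehhadh and Fabp1 were near 0 in the fed pair only.

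Since PPARα acts by binding DNA, the sequence before their start sites was searched for the motif of PPARα with its partner, which is 2 copies of AGGTCA separated by 1 base. Up to 2 mismatches were allowed on either strand in a window of 300 bases, from 250 bases before to 50 bases after the gene start (RefSeq, GRCm38.p6). A match was present for 4 of the 93 lower genes with a window (4.30%), for 7 of the 96 higher genes (7.29%), and for 4.40% of all 27025 genes with a window. The share among lower genes was thus close to that of all genes in this window. Of the textbook targets past 1.5-fold in the fed pair, the following had a match, which is printed in capitals. Positions are counted from 0 at the first base of the gene, and sequences run along the strand of the gene. The Slc25a20 stretch is chr9:108662016-108662165 on the plus strand, with the match at 6 to 18. The Creb3l3 stretch is chr10:81092692-81092841 on the minus strand, with the match at -209 to -197 in 1 of its 2 windows. The Cd36 stretch is chr5:17835897-17836046 on the minus strand, and its match, at -63 to -51, lies on the strand opposite to the gene. A match is a resemblance of letters and does not show binding.
Slc25a20: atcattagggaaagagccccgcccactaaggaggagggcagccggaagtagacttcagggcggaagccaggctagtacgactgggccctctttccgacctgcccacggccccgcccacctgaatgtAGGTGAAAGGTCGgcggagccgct
Creb3l3: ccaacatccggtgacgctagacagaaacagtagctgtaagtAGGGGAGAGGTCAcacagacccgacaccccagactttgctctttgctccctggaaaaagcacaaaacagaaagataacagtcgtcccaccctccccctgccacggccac
Cd36: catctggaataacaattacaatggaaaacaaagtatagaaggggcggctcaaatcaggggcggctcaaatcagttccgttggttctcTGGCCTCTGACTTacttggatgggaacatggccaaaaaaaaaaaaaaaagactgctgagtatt

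The genes that the study selected for follow-up were read in the fed pair as well. Since they were chosen in part on these animals, their direction is not independent evidence. Of 8 genes, 6 were measured, of which 3 were lower and 1 was higher, against 3.17% and 3.23% of all genes. Txnip, an inhibitor of thioredoxin, read 250 and 154 units and was lower together with Etfdh and Etfb, but with its probe sets averaged it differed by only -0.20. Mgll, which hydrolyses monoglycerides, read 831 and 588 units (-0.50) in its brightest probe set and there stayed within 1.5-fold. Its other measured probe sets differed by -0.59, just past 1.5-fold, and by -0.22. The triglyceride lipase Pnpla2 read 61.9 and 67.7 units. Pctp, the phosphatidylcholine transfer protein, went the other way and read 193 and 549 units, 2.85-fold higher in fed PPARα-null liver. The lipases Lipe and Lipg did not reach 64 units.

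Few genes of lipid synthesis passed 1.5-fold in the fed state. Of 15 measured genes of fatty acid synthesis, 0 were lower and 1 was higher, against 3.17% and 3.23% of all genes. The list median was -0.09. The higher gene was Fasn, the fatty acid synthase, which read 518 and 881 units. Srebf1 and Acly, a regulator and an enzyme of the same pathway, differed by 0.03 and 0.13. Lpin2, a phosphatidate phosphatase, read 465 and 267 units in its brightest probe set, but its other measured probe set differed by only -0.05. Among 16 measured genes of cholesterol synthesis and uptake, Stard4, a sterol carrier, was the only gene past 1.5-fold, at 921 and 590 units.

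In the bile acid list 3 of 20 measured genes were lower, against 3.17% of all genes, 1 was higher, and the median was -0.17. All 3 lower genes encode canalicular transporters. Besides Abcg5, these were the phospholipid exporter Abcb4, at 964 and 585 units, and the dim Abcg8, at 71.5 and 38.2 units, which differed by only -0.16 with a floor at 64 units. Abcc3, which exports conjugates back to blood, read 479 and 780 units. Cyp7a1, which sets the pace of bile acid synthesis, read 197 and 155 units (-0.34) in the fed pair but 654 and 44.1 units in fasting. Of 18 apolipoprotein and assembly genes, 0 were lower and 2 were higher, against 3.17% and 3.23% of all genes. Apoa4 read 6093 and 11179 units, with a difference of 0.40 in its other measured probe set, and Vldlr, a lipoprotein receptor, read 31.5 and 95.6 units in a probe set with a suffix.

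In retinoid and aldehyde metabolism 4 of 20 measured genes were lower, against 3.17% of all genes, 0 were higher, and the median was -0.08. Besides Retsat and Aldh3a2, these were the short-chain dehydrogenases Dhrs4 and Hsd17b11. Dhrs4 read 1108 and 484 units and was 2.29-fold lower, and its other measured probe set differed by -1.25. Hsd17b11, found on lipid droplets, read 2173 and 1102 units and was 1.97-fold lower. The same genes were 3.29-fold and 4.24-fold lower in the fasted pair.

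Few genes of central energy metabolism outside fatty acid oxidation passed 1.5-fold. Of 37 measured subunits of the respiratory chain and ATP synthase, 0 were past 1.5-fold in either direction, and the extremes were -0.45 and 0.25. The same held for 33 genes of amino acid catabolism and the urea cycle, 18 cytochromes P450 of families 1 to 3, 13 male-biased genes, 21 cytosolic ribosomal proteins and 27 proteasome subunits, each with 0 genes past 1.5-fold. Over all genes 3.17% were lower and 3.23% higher, and a count of 0 in lists of these sizes is not far from those shares. In the citric acid cycle list Idh3a read 307 and 200 units and Idh2 215 and 365 units, and the other 21 of 23 genes stayed within 1.5-fold. Of 4 measured genes of ketone body metabolism, 0 passed 1.5-fold, with a median of 0.19. Pck1 and G6pc, which control gluconeogenesis, differed by -0.05 and -0.11. Asns, the asparagine synthetase, read 84.2 and 227 units and was 2.70-fold higher, with a like difference in its other measured probe set (1.34).

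**Figure D4:**
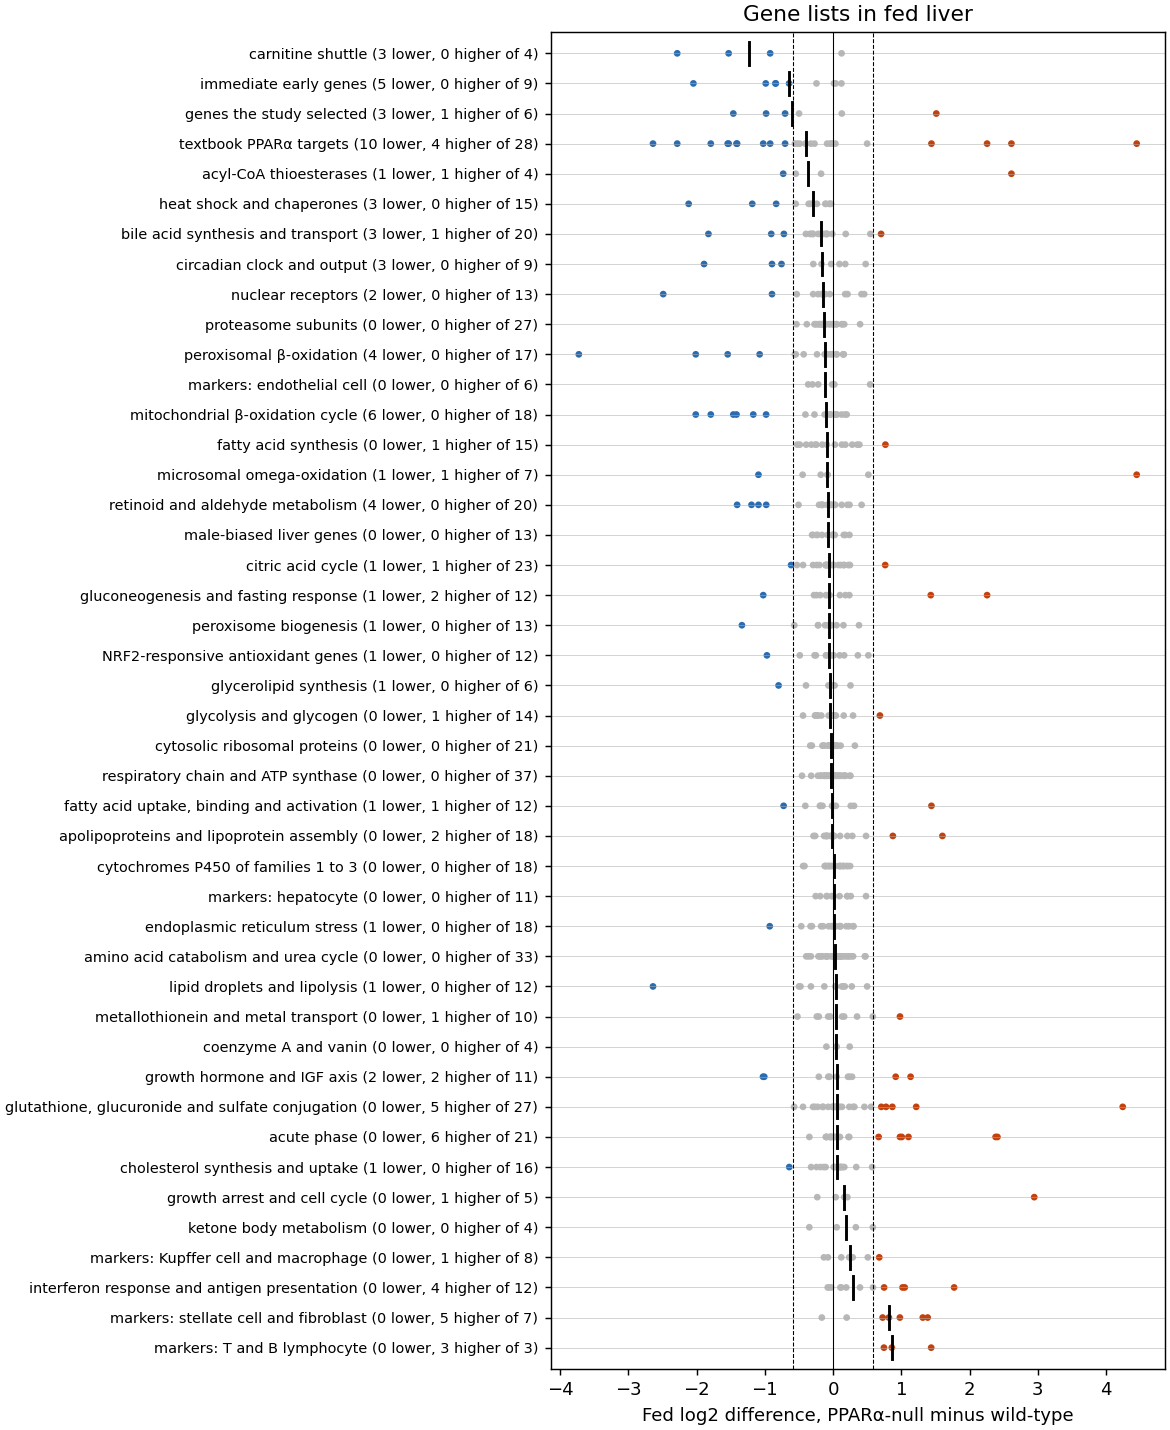
Fed differences (log2, PPARα-null minus wild-type) of the measured genes of every list with at least 3 of them, ordered by the list median, which is the black bar. Blue and orange points are at least 1.5-fold lower and higher, and dashed lines mark 1.5-fold. The carnitine shuttle has the lowest median (-1.23), and ribosomal, proteasome and respiratory chain genes cluster around 0.

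Some stress-inducible genes were lower in fed PPARα-null liver. Heat shock proteins, which refold damaged proteins, had 3 of 15 measured genes lower, against 3.17% of all genes, and 0 higher, and all 15 differences were below 0, with a median of -0.29. Hspa1b, the inducible form of Hsp70, read 2296 and 530 units and was 4.33-fold lower, with its other measured probe sets between -2.79 and -2.01. In fasting it read 244 and 21.1 units. Hsph1 was 2.27-fold lower, at 1229 and 541 units, and Dnajb1 1.78-fold lower, at 149 and 83.6 units. The abundant constitutive member Hspa8 differed by only -0.11.

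Immediate early genes respond within minutes to handling, growth factors and food, and 5 of 9 measured genes were lower, 0 were higher, and the median was -0.64, or -0.24 with a floor at 64 units. Among all genes 3.17% were lower. Fos read 309 and 74.9 units and was 4.13-fold lower, while in both fasted groups it was under the floor. Egr1 read 696 and 388 units, Ier2 404 and 259 units, Klf10 119 and 59.8 units and Junb 74.2 and 41.5 units, a difference of only -0.21 with a floor at 64 units. Jun, by contrast, differed by 0.12. Clock-controlled genes were lower in part, with 3 of 9 lower, 0 higher and a list median of -0.17, read against the same 3.17%. Besides Dbp these were Nr1d2, a repressor of the clock, at 1645 and 885 units, and Tef, at 98.5 and 58.3 units. With their probe sets averaged, Nr1d2 and Tef differed by only -0.45 and -0.25.

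Some genes of the acute phase list were higher. Of 21 measured genes, 6 were higher and 0 lower in fed PPARα-null liver, and the median was 0.06, against 3.23% higher among all genes. Saa2, a serum amyloid A gene, read 181 and 944 units and was 5.21-fold higher. Saa1 read 804 and 1729 units, 2.15-fold higher, and its other measured probe set differed by 1.67. The family members are similar in sequence and can share signal. Lcn2, the siderophore-binding protein lipocalin, was below 16 units in the fed wild-type pool and at 84.9 units in the fed PPARα-null pool, at least 5.31-fold higher. Orm2, Mt2 and Lbp were also higher, at 48.9 and 98.2, 32.9 and 64.9, and 260 and 413 units. With a floor at 64 units Lcn2 differed by 0.41 and Mt2 by 0.02, so that 2 of the 6 genes no longer passed 1.5-fold. Other acute phase genes read alike in the genotypes, as Hp, the haptoglobin gene, read 8052 and 8445 units and Fgb, a fibrinogen chain, 15070 and 14831 units. All 6 higher genes were also past 1.5-fold in the same direction in the fasted pair. There 9 of the 21 were higher, against 9.75% of all genes.

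Interferon-inducible genes were higher in part. Of 12 measured genes, 4 were higher, against 3.23% of all genes, 0 were lower, and the median was 0.29. The GTPases Irgm2 and Igtp, which act against intracellular pathogens, read 53.0 and 181 units and 47.6 and 98.5 units. Irgm1 read 91.2 and 153 units, and Psmb8, a subunit of the immunoproteasome, 40.6 and 82.1 units, a difference of 0.36 with a floor at 64 units. B2m and H2-D1, of the class I antigen-presenting complex, differed by 0.12 and 0.19. In the fasted pair Irgm2, Igtp and Irgm1 differed by -0.34, -0.15 and -0.06 and Psmb8 by 0.35.

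Some markers of other cell types were also higher in fed PPARα-null liver. In whole liver, more cells of a type and more RNA per cell cannot be told apart. Of 8 measured Kupffer cell and macrophage markers, 1 was higher (Mpeg1, at 63.2 and 101 units), the median was 0.24 (0.060 without suffixed probe sets), and the summed intensity of the list was 2021 and 2439 units in the fed pair. The Kupffer cell marker Clec4f read 60.3 and 73.6 units. Stellate cell and fibroblast markers had 5 of 7 measured genes higher, against 3.23% of all genes, and a median of 0.82, with summed intensities of 2246 and 3141 units in the fed and 2202 and 3815 units in the fasted pair. Col3a1, a fibrillar collagen, read 47.2 and 123 units, Sparc, a matrix protein, 267 and 526 units, and Pdgfrb, a growth factor receptor of these cells, 32.8 and 81.5 units. Vim and Bgn, a filament protein and a matrix proteoglycan, were 315 and 522 units and 158 and 278 units. Of these 5 genes, Sparc was the only one read from a probe set without a suffix. Without suffixed probe sets Col3a1 and Pdgfrb were under the floor on both fed arrays, so their difference could not be read. Vim then differed by 0.42 and Bgn by 0.50, so that Sparc alone of the 5 stayed past 1.5-fold. The median of the list was then 0.20. The markers Col1a1, Lrat and Des were under the floor on both fed arrays.

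The 3 measured genes of the lymphocyte list, H2-Eb1, H2-Aa and Cd74, all serve class II antigen presentation. All 3 were higher, against 3.23% of all genes. Cd74 read 186 and 504 units, H2-Aa 188 and 341 units and H2-Eb1 82.2 and 138 units. The T cell genes Cd3d, Cd3e and Cd3g and the B cell genes Cd79a, Cd79b and Ms4a1 were under the floor on all 4 arrays. Neutrophil and cholangiocyte markers had 0 measured genes, and 6 endothelial markers had 0 past 1.5-fold, with a median of -0.12. The erythroid gene Alas2, of haem synthesis, read 465 and 748 units. The part of these cell types in the higher gene groups was not tested.

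Of the exocrine pancreas list, 2 genes were measured. The trypsinogen gene 2210010C04Rik read 59.1 units in fed wild-type and 430 units in fed PPARα-null liver, but 39.0 and 26.7 units in the fasted groups. This probe set carries a suffix, and the probe sets of the gene without a suffix were under the floor on both fed arrays. The elastase gene Cela1 read 552 and 745 units in the fed and 53.9 and 55.0 units in the fasted groups. The summed intensity of the pancreatic list was 800 and 1489 units in the fed and 258 and 248 units in the fasted groups. Most of its other genes were dim, among them Cela2a at 21.1 and 53.3 units and Prss2 at 27.9 and 52.7 units in the fed pair. Whether pancreatic tissue adhered to the fed livers was not tested.

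Among conjugation enzymes 5 of 27 measured genes were higher, against 3.23% of all genes, 0 were lower, and the median was 0.06. Sult1e1, the estrogen sulfotransferase, read 19.6 units in fed wild-type and 371 units in fed PPARα-null liver, 18.9-fold higher, and 79.6 and 1636 units in the fasted groups, 20.5-fold higher. Gstm2 read 744 and 1731 units and was 2.33-fold higher, followed by Gstm3 and Gstm6, at 85.6 and 156 and at 138 and 237 units. These Gstm genes are similar in sequence. Sult5a1 was 1.63-fold higher, at 124 and 203 units.

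Growth-related genes had no common direction. Socs2, the feedback inhibitor of growth hormone signalling, read 88.6 and 43.5 units, and Igfbp2, an IGF carrier, read 4058 and 2018 units and was 2.01-fold lower. Igfbp3 and Igfals, which hold circulating IGF in its complex, were higher, at 241 and 529 units and at 110 and 208 units. Igf1 itself read 2804 and 2907 units. Ndrg1, a gene of differentiation and hypoxia, read 44.4 and 343 units and was 7.71-fold higher in the fed pair, and its other measured probe sets differed by 2.05 and 2.27. In the fasted groups it read 34.2 and 29.6 units.

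Several of the other 15 highest genes had no list in common. Meg3, a long noncoding RNA of an imprinted region, read 99.5 and 568 units, and its other measured probe sets ranged from 2.79 to 3.13, whereas the probe set without a suffix was at the floor. Nat8, an acetyltransferase, read 44.6 and 237 units, Slc13a3, a transporter of dicarboxylates, 160 and 614 units, and Nnmt, which methylates nicotinamide, 55.0 and 241 units. Cxcl14, a chemokine, read 25.7 and 94.4 units in the fed but 26.9 and 748 units in the fasted groups. Tceal8 read 30.5 and 161 units and Chil4, a chitinase-like protein of macrophages, 18.1 and 76.0 units.

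The fed and fasted comparisons share no array and were set side by side. Of the 112 genes lower in fed PPARα-null liver, 61 (54.5%) also passed 1.5-fold downwards in the fasted pair, 45 were within 1.5-fold and 6 were higher. Of the 114 higher genes, 45 (39.5%) were also higher, 58 were within 1.5-fold and 11 were lower. The 61 shared lower genes were 8.87% of the 688 genes lower in the fasted pair, and the 45 shared higher genes were 13.1% of the 344 higher. For reference, 19.5% of all genes were lower and 9.75% higher in the fasted pair. Over the 3529 genes, which are not independent of each other, the differences correlated with Pearson's r of 0.30 and Spearman's rho of 0.23. Of the 688 genes lower in the fasted pair, 616 (89.5%), Ehhadh and Fabp1 among them, stayed within 1.5-fold in the fed pair.

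**Figure D5:**
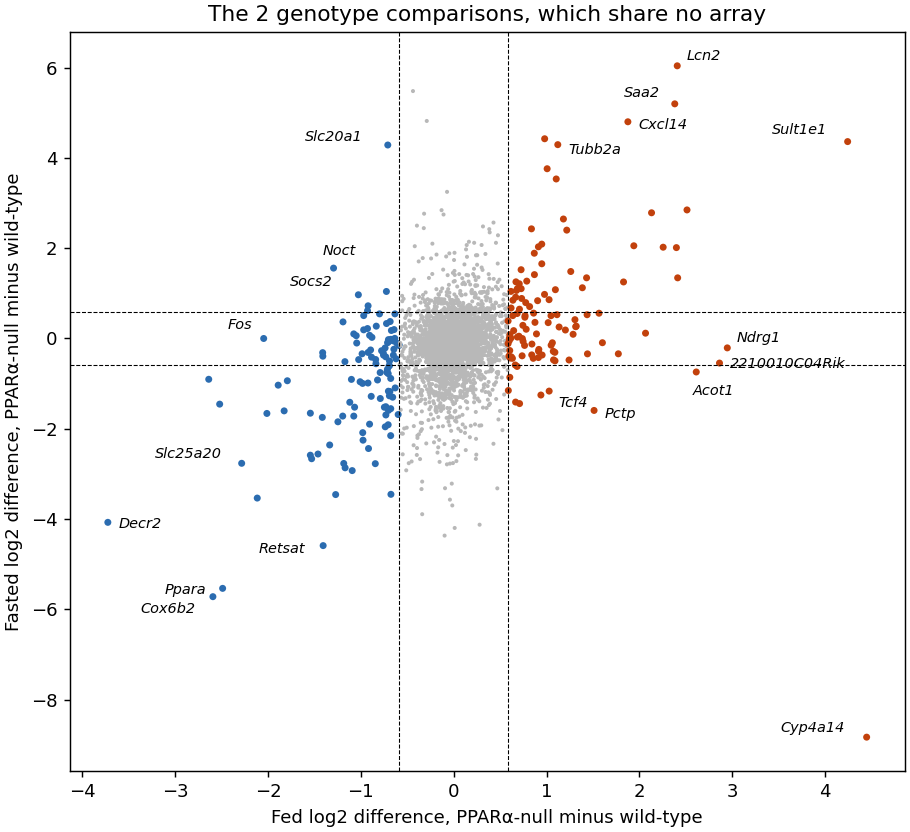
Each point is 1 of 3529 genes, with the fed difference (log2, PPARα-null minus wild-type) on the x axis and the fasted difference on the y axis. Dashed lines mark 1.5-fold, and colours mark genes at least 1.5-fold lower (blue) or higher (orange) in the fed pair. Decr2, Ppara and Cox6b2 lie at the lower left, Sult1e1, Lcn2 and Saa2 at the upper right, and Cyp4a14 alone at the far lower right.

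Of the 226 genes past 1.5-fold in the fed pair, 103 stayed within 1.5-fold in the fasted pair. They are the 45 lower and 58 higher genes counted above. Among them were Fos, Cpt1a, Creb3l3 and Nr1d2 in the lower and Ndrg1, Cd36, Apoa4 and Fasn in the higher direction. Atf5, a transcription factor of amino acid stress, read 677 and 1427 units in the fed but 2493 and 1795 units in the fasted groups. Gch1, the first enzyme of tetrahydrobiopterin synthesis, read 667 and 292 units in the fed and 1280 and 1651 units in the fasted groups. That these genes passed 1.5-fold in 1 state only does not show that the states differed.

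The genes past 1.5-fold lay on every autosome, and the largest share of an autosome was on chromosome 17. There, 10 of 155 measured genes were lower and 9 were higher, 12.3% in all, whereas the other autosomes had between 2.46% and 9.36%. Chromosome 17 carries the lower genes Decr2, Angptl4, Eci1, Hspa1b, Abcg5 and Abcg8, and the class II and immunoproteasome genes H2-Aa, H2-Eb1 and Psmb8. It also carries Glo1, the glyoxalase of methylglyoxal detoxification, which read 9966 and 6166 units in the fed and 6297 and 2612 units in the fasted groups, with its 3 measured probe sets all past 1.5-fold in the fed pair. Sequence differences between the substrains at probes or in genes were not tested and cannot be told apart from genotype with these arrays.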

How the data were processed

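Total liver RNA, pooled within each group, was hybridized to Affymetrix MOE430A arrays. The deposited values are linear intensities from GCRMA, for which the submitters' processing notes name version 2.20. It corrects background, normalizes arrays and summarizes probes. No scanner files were used here, so these steps could not be repeated, and precision is limited by the number of arrays.

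Groups came from the array labels. Of 22626 probe sets that are not controls, 20380 name 1 gene, 691 several and 1555 none in the platform annotation, and only the first kind named genes. Symbols were checked against RefSeq (GRCm38.p6) for 20351. Each gene was read from its brightest probe set (mean log2 of the 4 arrays), with values under 16 units set to 16. Following the study's threshold for pooled arrays, a difference counted at 1.5-fold (log2 of 0.585) or more in members at 64 units or more on the brighter fed array. A fold against a value at this floor is a bound. There was no test. The named genes were Ppara and its neighbours, the 15 largest differences each way, the study's 8 genes, up to 6 past 1.5-fold per list, up to 10 opposite in the fasted pair, the genes nearest 64 units and up to 2 near 0 per list. Other genes named near 0 or in 1 state only (Atf5, Gch1, Glo1) were picked after their values were seen. The members and 51 lists were chosen with earlier results of these data known.

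Alternatives were a 2-fold threshold, filters at 16 and 256 units, floors at 64 units or none, quantile normalization, centring, lowess (fraction 0.3), no suffixed probe sets and averaged probe sets. A filter on the mean of the arrays and one on both fed arrays were added after seeing the data. Procedures were tested on simulated data. Python 3.11.15, numpy 2.4.6, pandas 2.3.3, statsmodels 0.14.6 and matplotlib 3.10.9 were used.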

Additional observations from a re-analysis of the deposited data

Results flagged for a closer look

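In 10 genes the fed and the fasted differences between the genotypes lay past 1.5-fold in opposite directions, with the largest smaller difference among 17 such genes. With 1 array per group the difference between the states was not tested. The log2 difference, PPARα-null minus wild-type, of Cyp4a14 was 4.45 in the fed and -8.83 in the fasted pair, where the PPARα-null array was at the floor. Acot1 differed by 2.61 and -0.74, and Pctp by 1.51 and -1.59. Tcf4, a transcription factor, differed by 1.03 and -1.17, and Marcks, a substrate of protein kinase C, by 0.94 and -1.25. The order was turned for Noct, a clock-controlled regulator of RNA and nicotinamide cofactors, with -1.29 and 1.56. Socs2 followed with -1.03 and 0.97, Fabp5, a fatty acid binding protein, with -0.72 and 1.04, and the uridine phosphorylase gene Upp2 with -0.92 and 0.72. Slc20a1, a phosphate transporter, differed by -0.71 and 4.28. Slc20a1 was at -0.19 in the fed pair without suffixed probe sets, Tcf4 at 0.32 with averaged probe sets and Socs2 at -0.47 with a floor at 64 units.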

How the results depend on the processing

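With 1 array per group the labels give no replicate numbers to pair or leave out. No paired analysis was possible because each group holds 1 array. The 168 lower and 173 higher probe sets became 58 and 75 at a 2-fold threshold, 96 and 71 with the stricter filter on intensity, and 111 and 89 without suffixed probe sets. The higher count was 299 with a filter at 16 units, 114 by gene and, chosen after seeing the data, 97 with 64 units required on both fed arrays. The lower share of all counted probe sets, 49.3%, was 43.6% at a 2-fold threshold, 45.4% with a filter at 16 units, 57.5% with the stricter filter, 56.6% with a filter on the mean of the 4 arrays, 55.5% without suffixed probe sets and 57.3% with both fed arrays required. Quantile normalization, centring and lowess left both counts within 1.5 times. Among list medians, the carnitine shuttle moved from -1.23 to -1.53 without suffixed and to -0.85 with averaged probe sets. The mitochondrial β-oxidation cycle moved from -0.11 to -0.31 without suffixed probe sets. The interferon list moved from 0.29 to 0.39 without suffixed probe sets, and the immediate early list from -0.64 to -0.24 with a floor at 64 units. The study's genes moved from -0.60 to -0.35 without suffixed and to -0.26 with averaged probe sets. Kupffer cell markers moved from 0.24 to 0.060 and 0.12, and stellate cell markers from 0.82 to 0.20 and 0.52, under the same settings. Fatty acid synthesis moved from -0.09 to 0.03 with averaged probe sets. Gluconeogenesis and fasting response moved from -0.06 to 0.07 without suffixed probe sets, and endothelial markers from -0.12 to -0.30. No called value changed sign, but some list medians near 0 did. Of 100 named genes past 1.5-fold, 100 kept their call under quantile normalization, centring, lowess and no floor, 87 with a floor at 64 units, 90 with averaged probe sets and 73 of the 86 that could be evaluated without suffixed probe sets. Without suffixed probe sets Angptl4, Col3a1, Pdgfrb, Vldlr, Meg3, 2210010C04Rik and Idh3a were under the floor of 16 units on both fed arrays. Their difference of 0 is set by the floor and does not show that the genotypes read alike. Anp32a was at -0.10. With a floor at 64 units Abcg8, Cbr1, Junb, Pxmp4, Socs2 and Them4 among the lower and Chil4, Cxcl14, Lcn2, Mt2, Pdgfrb, Psmb8 and Vldlr among the higher genes no longer passed 1.5-fold. The cause was not tested.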
